A study of Mus musculus with 4 samples.

Results

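Ly6c2-positive monocytes made up 660 of the 37644 cells kept from 4 single-cell RNA libraries of mouse salivary gland leukocytes (cells sorted for the pan-leukocyte marker CD45). A kept cell is a barcode that reached 500 UMIs (molecular tags that count captured RNA molecules) and 300 detected genes, and whose mitochondrial share did not exceed 10%. A monocyte was a kept cell with at least 10 UMIs of Lyz2, 2 of Ly6c2, 1 of Ccr2 and 1 of Plac8. It also had at most 5 UMIs of C1qa, C1qb and C1qc together, fewer than 20 of Retnla and fewer than 3 of Cd209a. The cells were thus selected on the measured counts of these 9 genes, whose values below are a description without a test.

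The libraries came from Csf2-/- mice and Csf2+/- mice aged 20 days, on a background that the labels spell C56BL/6. Each genotype had 1 female and 1 male library, and each library pooled 2 mice. The Csf2-/- libraries held 137 (female) and 210 (male) monocytes, and the Csf2+/- libraries held 135 (female) and 178 (male). Every mouse thus carried at least 1 disrupted Csf2 allele, and no library of 2 intact alleles was among them. With 2 pools per genotype that also differ in sex, p-values measure the spread between these pools.

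Classical monocytes are made in the bone marrow, leave it through the chemokine receptor CCR2 and circulate with high surface Ly6C. They enter tissues and can mature into macrophages or dendritic-like cells, or turn into Ly6C-low non-classical monocytes that patrol vessels. Csf2 encodes GM-CSF, a myeloid growth factor. Its receptor pairs a specific alpha chain (Csf2ra) with a shared beta chain (Csf2rb) and signals through the kinase JAK2 to the transcription factor STAT5. The series as a whole asks how gland macrophages depend on GM-CSF from ILC2, a class of innate lymphoid cells, and monocytes are one source from which tissue macrophages can be renewed.

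The libraries held 111981802 to 122366588 UMIs. Csf2 itself stood at 0.929 and 1.09 CPM (UMI counts scaled to a common library total) in the Csf2-/- libraries, against 16.5 and 17.9 CPM in the Csf2+/- libraries. In every pair of values the female library is given first. The Y-linked gene Ddx3y had 2.05 and 130 CPM in Csf2-/- libraries, against 0.049 and 123 CPM in Csf2+/- libraries, so the Csf2-/- female library held some Y-linked RNA. Pairs of libraries shared 20 to 38 barcode sequences. Monocytes were sequenced to similar depth, with a median of 11258 and 10482 UMIs per cell in Csf2-/- libraries, against 10967 and 11559 in Csf2+/- libraries. Doublet scoring marked 17 and 26 of the Csf2-/- monocytes and 10 and 28 of the Csf2+/- monocytes, which were kept and left out only as an alternative. Its cutoffs were set per library. Of all kept cells it marked 3.03% and 9.82% in Csf2-/- libraries, against 7.65% and 7.01% in Csf2+/- libraries.

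The genes that chose the cells had the following levels, which the choice itself sets in part. Summed over cells and without further scaling, Lyz2, which encodes lysozyme, had 17253 and 19363 CPM in Csf2-/- monocytes, against 20207 and 18091 CPM in Csf2+/- monocytes. Plac8, a small cysteine-rich protein of myeloid cells, had 2982 and 3578 CPM in Csf2-/- monocytes, against 3688 and 3628 CPM in Csf2+/- monocytes. Ccr2 had 599.9 and 842 CPM in Csf2-/- monocytes, against 687 and 732 CPM in Csf2+/- monocytes. The order of the genotypes was not the same in the female and male libraries for Lyz2 and Ccr2. Ly6c2, which encodes the antigen that names these cells, had 757 and 931 CPM in Csf2-/- monocytes, against 1135 and 944 CPM in Csf2+/- monocytes. On this unscaled CPM the Csf2-/- values lay lower without overlap, where 26.2% of all tested genes did. With the scaling for composition used further below (TMM), the genotypes overlapped. The near-identical Ly6c1 had at most 1.15 CPM in the monocytes of any library.

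The marker Fn1, which encodes the matrix protein fibronectin, played no part in the choice of cells. After each cell was thinned to 3000 UMIs, 63.5% and 57.7% of Csf2-/- monocytes and 55.2% and 63.8% of Csf2+/- monocytes had an Fn1 UMI. The same share was 3.34% and 2.83% in Csf2-/- and 3.54% and 5.85% in Csf2+/- C1q-high macrophages, the cells with at least 20 C1q UMIs under the same Lyz2, Retnla and Cd209a limits. In lymphoid cells, which should lack the gene, it was 0.194% and 0.240% in Csf2-/- libraries, against 0.787% and 1.10% in Csf2+/- libraries. The lymphoid cells had fewer than 10 Lyz2 UMIs and at least 3 UMIs of Cd3d, Cd3e and Nkg7 together. In the cells chosen below as non-classical it was 8.59% and 12.4% in Csf2-/- libraries, against 8.16% and 8.58% in Csf2+/- libraries. Cells that met all conditions but had no Ly6c2 UMI held 147 and 129 unscaled CPM of Fn1 in Csf2-/- libraries, against 165 and 161 in Csf2+/- libraries. The monocytes held 597 and 619, against 609 and 698. Fn1 RNA was thus found in most monocytes and in few of the macrophages and lymphoid cells.

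Other classical genes followed. Hp (haptoglobin) had 558 and 578 CPM in Csf2-/- monocytes, against 658 and 500.5 CPM in Csf2+/- monocytes. Vcan (the proteoglycan versican) had 80.6 and 74.6 CPM in Csf2-/- monocytes, against 71.6 and 77.1 CPM in Csf2+/- monocytes, and at most 6.03 CPM in any other group of cells described here. Chil3 (a chitinase-like lectin) had 133 and 199 CPM in Csf2-/- monocytes, against 207 and 157 CPM in Csf2+/- monocytes. In none of these did the genotypes separate. The neutrophil alarmin S100a9 was nearly absent, with 2.58 and 1.15 CPM in Csf2-/- monocytes and 0.568 and 4.56 CPM in Csf2+/- monocytes. S100a8, its partner, had 47.0 and 50.3 CPM in Csf2-/- monocytes and 80.6 and 56.8 CPM in Csf2+/- monocytes.

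Non-classical genes were also present in the monocytes. Ace, which encodes angiotensin-converting enzyme, had 90.9 and 138 CPM in Csf2-/- monocytes, against 134 and 122 CPM in Csf2+/- monocytes. The comparison cells were 869 cells of the same macrophage and dendritic limits with no Ly6c2 UMI and at least 2 UMIs of Ace, Treml4 and Spn together. There Ace, which chose them, had 375 and 483 CPM in Csf2-/- libraries, against 490.4 and 449 CPM in Csf2+/- libraries. After thinning, an Ace UMI was found in 19.7% and 29.8% of Csf2-/- monocytes, against 23.9% and 23.7% of Csf2+/- monocytes. In the comparison cells that share was 67.7% and 72.0% in Csf2-/- libraries, against 76.0% and 70.9% in Csf2+/- libraries. Nr4a1, a nuclear receptor that non-classical monocytes need, had 597 and 668 CPM in Csf2-/- monocytes, against 646 and 658 CPM in Csf2+/- monocytes. The cells at the edge of the rule were few for most genes, but not for Ly6c2 and Ccr2. With all other conditions met, 87 cells had exactly 2 Ly6c2 UMIs, 140 had 1 and 561 had 0. For Ccr2, 55 cells had 1 UMI and 73 had 0. By contrast, 4 cells had 5 C1q UMIs and 6 had 6. Cells that missed the rule only through the C1q limit numbered 58 and 120 in Csf2-/- libraries, against 28 and 29 in Csf2+/- libraries, without overlap. Predicted doublets were 8 and 63 of them, against 9 and 15, and 46 and 80, against 13 and 20, had at least 3 UMIs of lymphoid markers. C1q-high macrophages were 12.4% and 15.3% of kept cells in Csf2-/- libraries, against 9.52% and 11.2% in Csf2+/- libraries. Cells that missed the rule only through the Cd209a limit numbered 12 and 32 in Csf2-/- libraries, against 18 and 16 in Csf2+/- libraries. The Retnla limit alone removed 0 and 0 cells in Csf2-/- libraries, against 1 and 7 in Csf2+/- libraries.

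**Figure D1:**
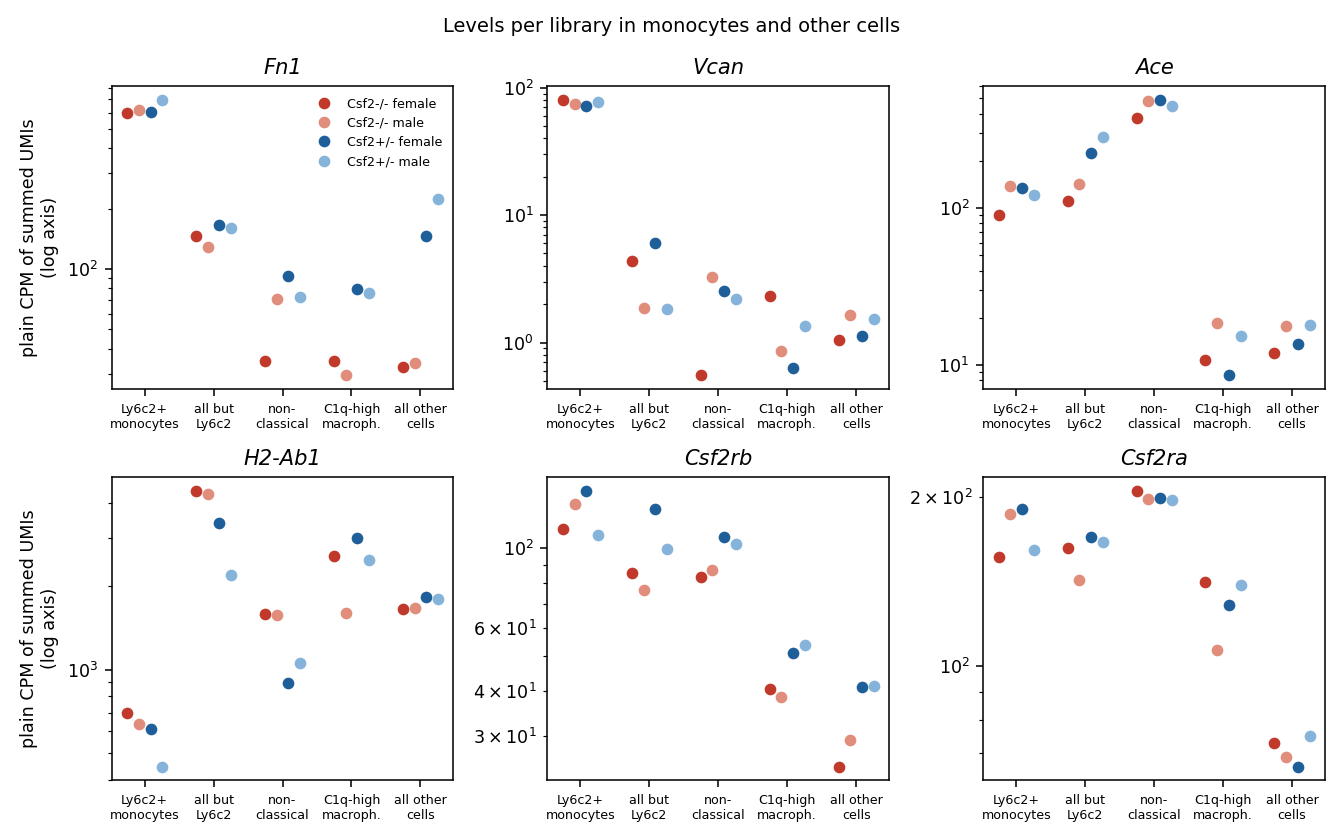
Unscaled CPM (log axis) of 6 genes in summed UMIs of Ly6c2+ monocytes, cells meeting all conditions but with no Ly6c2 UMI, cells chosen as non-classical, C1q-high macrophages and all cells other than the monocytes. Each point is 1 library, with Csf2-/- left of Csf2+/-. Fn1 and Vcan were highest in the monocytes in all 4 libraries, Ace was highest in the non-classical cells and H2-Ab1 was lowest in the monocytes.

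Markers of other cell types were measured in the same cells, because droplets can hold a second cell or free RNA. Of 20 lymphoid markers, 20 and 19 had a UMI in Csf2-/- monocytes, and 20 and 20 in Csf2+/- monocytes. Their summed level was 1112 and 646 CPM in Csf2-/- monocytes, against 494 and 776 CPM in Csf2+/- monocytes. At least 3 lymphoid UMIs were found in 35 and 46 Csf2-/- monocytes (25.5% and 21.9%), against 16 and 37 Csf2+/- monocytes (11.9% and 20.8%). The 10 epithelial markers took 1.93% and 1.01% of all UMIs in Csf2-/- monocytes, against 0.0862% and 0.229% in Csf2+/- monocytes. Single cells with 34908 and 25238 epithelial UMIs accounted for most of the Csf2-/- values. Of 10 neutrophil markers, 4 and 6 had a UMI in Csf2-/- monocytes, and 4 and 4 in Csf2+/- monocytes. They summed to 84.7 and 80.3 CPM in Csf2-/- monocytes, against 123 and 112 CPM in Csf2+/- monocytes. The neutrophil gene Ly6g was at 0 in all 4 libraries, and so was the eosinophil gene Epx. Markers of type 2 dendritic cells (8 genes) summed to 156 and 101 CPM in Csf2-/- and 158 and 80.4 CPM in Csf2+/- monocytes. For 5 red cell markers the sums were 111 and 5.38 CPM, against 0.568 and 2.07 CPM. The summed level of all 8 eosinophil, mast cell and basophil markers was 0 and 2.31 CPM in Csf2-/- monocytes, against 1.7 and 0.829 CPM in Csf2+/- monocytes. The part of lymphoid and epithelial RNA in the results was not tested beyond the values without such cells, given below as lineage-limited cells (fewer than 3 lymphoid and fewer than 50 epithelial UMIs).

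The monocyte share differed between genotypes by less than the spread between libraries of 1 genotype. Monocytes were 1.40% (exact binomial 95% interval 1.18 to 1.66) and 2.19% (1.91 to 2.51) of kept cells in Csf2-/- libraries. In Csf2+/- libraries they were 1.41% (1.18 to 1.67) and 2.03% (1.75 to 2.35). These intervals cover counting error only. The mean was 1.80 ± 0.557% in Csf2-/- and 1.72 ± 0.441% in Csf2+/- libraries (SD, n = 2 each), with a log2 ratio of 0.06. The two-sided exact permutation test gave p = 1, and the smallest p that 2 against 2 libraries allow is 0.333. Both male libraries stood above both female libraries, with sex means of 2.11% and 1.41%.

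Because the rule counts UMIs, it was also applied to cells thinned to 3000 UMIs, leaving out 628 and 648 shallower Csf2-/- cells and 578 and 573 shallower Csf2+/- cells. The share was then 0.690% and 1.33% in Csf2-/- libraries, against 0.734% and 1.02% in Csf2+/- libraries, with overlapping genotypes. Of cells with at least 10 Lyz2 UMIs, monocytes were 6.70% and 8.29% in Csf2-/- libraries, against 6.63% and 7.84% in Csf2+/- libraries. None of the 3 ways of counting separated the genotypes.

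**Figure D2:**
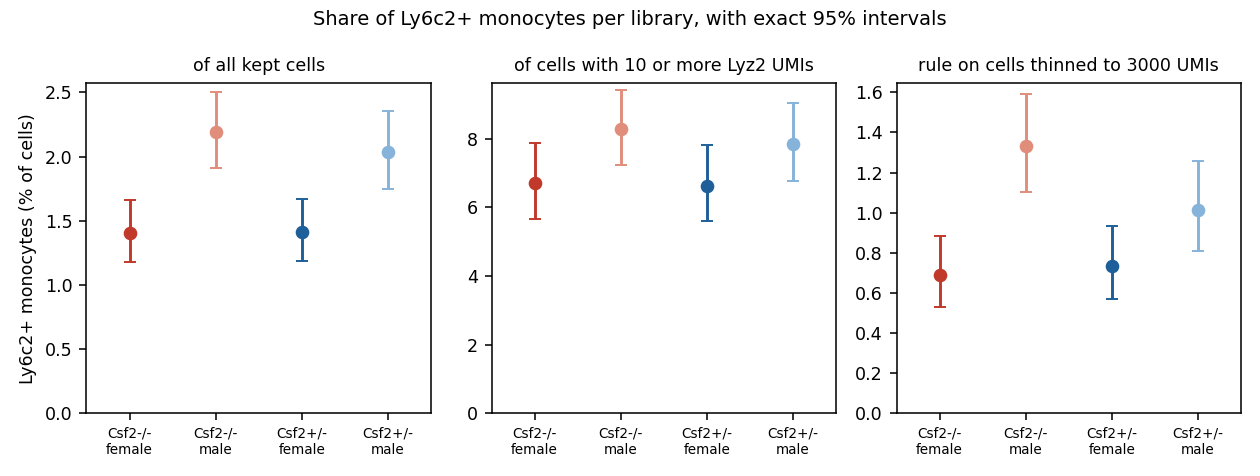
Ly6c2+ monocytes as a percent of all kept cells (left), of cells with at least 10 Lyz2 UMIs (middle) and by the rule on cells thinned to 3000 UMIs (right), for each library, with Csf2-/- left of Csf2+/-. Bars are exact 95% binomial intervals. The genotypes overlap in each panel, and the male library lies above the female one within each genotype.

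The cells that the rule chose differed most among themselves in antigen presentation genes. Ranked by variance over mean in cells thinned to 3000 UMIs, and averaged over libraries, the first genes among 2097 were Cd74, H2-Eb1, H2-Aa and H2-Ab1. They encode the invariant chain and the chains of MHC class II, which present peptides to T cells. Their variance was 12.5 to 34.9 times the mean. Lyz2, Actb (actin), Apoe (a lipid carrier), the chemokines Cxcl2 and Ccl4, the cytokine Il1b, Fth1 (ferritin) and Fos came next. MHC class II RNA was unevenly spread. The summed count of the 4 genes was 0 in 54.0% and 46.6% of Csf2-/- monocytes, and in 47.0% and 42.4% of Csf2+/- monocytes. The highest cell held 213 and 156 such UMIs in Csf2-/- libraries, against 150 and 214 in Csf2+/- libraries. Those single cells held 57 and 13 Lyz2 UMIs in Csf2-/- libraries, against 89 and 4 in Csf2+/- libraries. The median over monocytes was 68 and 65 Lyz2 UMIs in Csf2-/- libraries, against 67 and 58 in Csf2+/- libraries. Whether other antigen-presenting cells that met the rule are among the cells high in class II was not tested. The uneven spread was thus present in all 4 libraries.

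MHC class II and Fn1 counts ran weakly opposite ways. Across cells, Spearman's rho of the 2 counts was -0.35 and -0.24 in Csf2-/- libraries, against -0.25 and -0.25 in Csf2+/- libraries. Without cells holding any lymphoid UMI, it was -0.34 and -0.20 in Csf2-/- libraries and -0.23 and -0.24 in Csf2+/- libraries. Fn1 went with Lyz2 at a rho of 0.45 and 0.45 in Csf2-/- libraries, against 0.23 and 0.51 in Csf2+/- libraries. Lyz2 and the summed lymphoid count went opposite ways, at -0.60 and -0.33 in Csf2-/- libraries and -0.32 and -0.46 in Csf2+/- libraries. These are descriptions over 137, 208, 134 and 177 cells (Csf2-/- female and male, then Csf2+/- female and male) that share a library and a fixed UMI total, and carry no p.

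**Figure D3:**
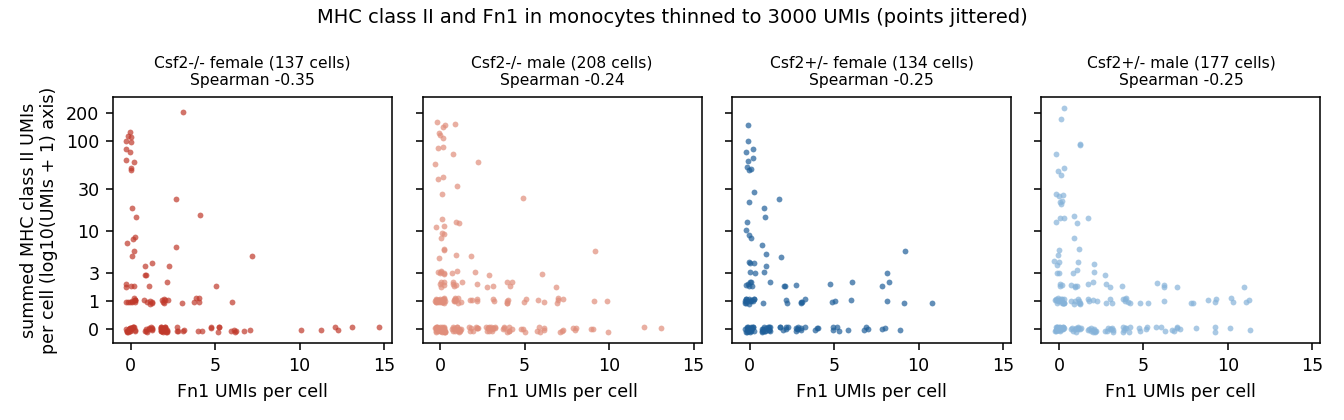
Summed UMIs of Cd74, H2-Aa, H2-Ab1 and H2-Eb1 (log10(UMIs + 1) axis) against Fn1 UMIs in single monocytes thinned to 3000 UMIs, 1 panel per library, with Csf2-/- left of Csf2+/-. In every panel most cells lie near an axis, and few are high in both counts.

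The genotypes were then compared gene by gene, on UMIs summed over the monocytes of each library. The values below are CPM scaled by TMM, which corrects for differences in composition between libraries, and fold changes are log2 of Csf2-/- over Csf2+/-. The test was edgeR's quasi-likelihood test with p-values adjusted by Benjamini-Hochberg over 9240 genes, at a threshold of 0.05. RNA of the GM-CSF receptor was measured in both genotypes. Csf2ra had 163 and 189 CPM in Csf2-/- monocytes, against 187 and 156 CPM in Csf2+/- monocytes. Csf2rb had 118 and 134 CPM in Csf2-/- monocytes, against 142 and 106 CPM in Csf2+/- monocytes. Both overlapped between genotypes, with a log2 fold change of 0.04 (SE 0.13) for Csf2ra and 0.04 (SE 0.15) for Csf2rb and edgeR adjusted p-values of 0.974 and 0.979.

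Csf2rb2, which encodes the beta chain of the mouse IL-3 receptor, was scarce, with 16.1 and 10.5 CPM in Csf2-/- monocytes, against 17.3 and 17.3 CPM in Csf2+/- monocytes. Csf1r, the receptor of the other main macrophage growth factor, had 408 and 481 CPM in Csf2-/- monocytes, against 558 and 511 CPM in Csf2+/- monocytes. The Csf1r values did not overlap (log2 -0.26, SE 0.11), and its edgeR adjusted p was 0.773. Csf3r, the G-CSF receptor, had 36.0 and 27.6 CPM in Csf2-/- monocytes, against 39.6 and 46.2 CPM in Csf2+/- monocytes (log2 -0.46, SE 0.20, edgeR adjusted p = 0.773). Among the signalling genes, Jak2 had a log2 fold change of 0.07, Stat5a one of -0.22 and Stat5b one of -0.34, and none of the 3 passed.

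Cish, a feedback inhibitor that STAT5 induces, had 34.3 and 28.7 CPM in Csf2-/- monocytes, against 22.3 and 26.1 CPM in Csf2+/- monocytes. Its values did not overlap and lay higher without GM-CSF, but the log2 fold change of 0.36 (SE 0.21) did not pass (edgeR adjusted p = 0.841). Without the lineage-mixed cells the log2 fold change was -0.33. The first transcribed bases are shown because they hold 2 copies of the STAT pattern TTCNNNGAA (capitals), at bases 1 and 12 counted from the start site. The sequence is RefSeq's (GRCm38.p6, chr9:107296659-107296688, plus strand), whereas the deposited counts used GRCm39.
Cish: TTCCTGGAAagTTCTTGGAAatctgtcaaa
Of 32817 RefSeq promoter windows of the same 300-base design, 8.29% hold this pattern on either strand.

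Across 24 measured genes that STAT5 is known to induce, 0 passed in either direction by edgeR. At unadjusted p under 0.05 there were 3 higher and 2 lower, where 3.32% of all genes were higher and 3.05% lower by that rule. Of the 24, 19 had a positive value, against 50.5% of all genes, and 5 a negative one, against 49.5%, and the median log2 fold change was 0.10, against 0.00 over all genes. Pim1, a survival kinase, had 885 and 929.6 CPM in Csf2-/- monocytes, against 921 and 878 CPM in Csf2+/- monocytes. Mcl1, an anti-apoptotic protein, had 1135 and 1097 CPM in Csf2-/- monocytes, against 1119 and 1082 CPM in Csf2+/- monocytes. Both sat within 0.02 of no change on the log2 scale. Socs2, another feedback inhibitor, had 24.2 and 16.3 CPM in Csf2-/- monocytes, against 12.3 and 18.1 CPM in Csf2+/- monocytes, and overlapped. Of 16 measured genes for GM-CSF and related receptors and their signalling, 0 passed, and 6 had positive and 10 negative values. The median was -0.15, and -0.11 for the same genes in all other cells. In lineage-limited monocytes the median of this list was -0.02. In 9 of the 16 both Csf2-/- libraries lay below both Csf2+/- libraries, where 18.2% of all genes did, and in 0 above. At unadjusted p under 0.05 there were 2, Csf1r and Csf3r, both lower, where 3.05% of all genes were.

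Over all genes, 7 of 9240 passed (0.0758%), 4 higher (0.0433%) and 3 lower (0.0325%) in Csf2-/- monocytes. At unadjusted p under 0.05 there were 589 (6.37%). Jun rose, and was found in most of the cells. It encodes a subunit of the AP-1 transcription factor, which cells induce within minutes of stress or stimulation, tissue digestion included. Jun had 673 and 726 CPM in Csf2-/- monocytes, against 444 and 451 CPM in Csf2+/- monocytes. The libraries did not overlap (log2 0.64, SE 0.10, edgeR adjusted p = 0.0419), and 119 and 180 Csf2-/- monocytes had a Jun UMI, against 103 and 137 Csf2+/- monocytes. In all other cells together Jun had 1288 and 1285 CPM in Csf2-/- libraries, against 942 and 918 CPM in Csf2+/- libraries, a log2 fold change of 0.47. Leaving out any 1 of the 4 libraries ended the call for Jun, with edgeR adjusted p-values of 0.0693 to 0.358 and log2 fold changes of 0.59 to 0.70. With sex as a block the log2 fold change was 0.64 and the adjusted p 0.229, in lineage-limited cells they were 0.50 and 0.101, and without predicted doublets 0.59 and 0.276. Jun passed in 7 of 20 alternatives, with log2 fold changes of 0.50 to 0.70 over all of them.

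Fos, the AP-1 partner of Jun, had 1377 and 1561 CPM in Csf2-/- monocytes, against 1046 and 991 CPM in Csf2+/- monocytes. Its libraries did not overlap (log2 0.53, SE 0.10), but it did not pass (edgeR adjusted p = 0.151). In all other cells its log2 fold change was 0.48. The 100 bases before the start of each gene are shown because Jun passed and its partner had a like value, and the capitals mark an AP-1 or CRE-like pattern that AP-1 and CREB proteins are known to bind. They are from RefSeq (GRCm38.p6), at chr4:95052223-95052322 on the minus strand for Jun and chr12:85473790-85473889 on the plus strand for Fos.
Jun: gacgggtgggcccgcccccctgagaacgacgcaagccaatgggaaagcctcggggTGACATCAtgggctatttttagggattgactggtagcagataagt
Fos: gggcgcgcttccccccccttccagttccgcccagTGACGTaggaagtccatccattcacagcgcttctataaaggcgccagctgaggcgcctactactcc
The pattern TGACNTCA begins at base -45 of Jun and is in 8.84% of RefSeq promoter windows, and TGACGT begins at base -66 of Fos and is in 7.51%, counting both strands. A match is a run of letters and no measure of binding.

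Of 26 measured immediate early and dissociation stress genes, 1 passed (Jun), where 0.0433% of all genes passed as higher, and 5 were higher at unadjusted p under 0.05, where 3.32% of all genes were. In 12 the Csf2-/- libraries lay above both Csf2+/- libraries, where 19.2% of all genes did, and 24 of 26 had a positive value, against 50.5% of all genes. The median log2 fold change was 0.17, and 0.14 for the same genes in all other cells. Junb, a further AP-1 subunit, had 1697 and 1491 CPM in Csf2-/- monocytes, against 1357 and 1225 CPM in Csf2+/- monocytes. Hspa8, a constitutive chaperone, had 1766 and 1876 CPM in Csf2-/- monocytes, against 1657 and 1561 CPM in Csf2+/- monocytes. Neither overlapped and neither passed, with log2 fold changes of 0.30 and 0.18.

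The mitochondrial ribosomal RNA mt-Rnr1 fell. It had 641 and 684 CPM in Csf2-/- monocytes, against 1027 and 1343 CPM in Csf2+/- monocytes (log2 -0.84, SE 0.13, edgeR adjusted p = 0.0432). One cell of the Csf2+/- male library held 518 of its 3341 UMIs. With the highest cell of each library left out for every gene, the log2 fold change was -0.71 (edgeR adjusted p = 0.00755). In all other cells mt-Rnr1 had 866 and 789 CPM in Csf2-/- libraries, against 1081 and 1200 CPM in Csf2+/- libraries (log2 -0.46). The call for mt-Rnr1 was lost without the Csf2-/- female library (edgeR adjusted p = 0.358), without the Csf2+/- male library (0.0969), with sex as a block (0.0971) and without predicted doublets (0.268), and it passed in 10 of 20 alternatives. All 13 measured mitochondrial protein genes had negative values (49.5% of all genes did), with a median of -0.19 (-0.14 in all other cells), and 0 passed. In 6 the Csf2-/- libraries lay lower without overlap (18.2% of all genes), and 4 were lower at unadjusted p under 0.05 (3.05% of all genes). The highest of the 13 by level, mt-Co1 (an oxidase subunit), had 3126 and 2965 CPM in Csf2-/- monocytes, against 3219 and 3699 CPM in Csf2+/- monocytes. The median mitochondrial share of UMIs per monocyte was 1.48% and 1.44% in Csf2-/- libraries, against 1.72% and 1.86% in Csf2+/- libraries. Whether cell quality or respiration moved with genotype was not tested. Of 31 nuclear respiratory chain genes 27 had positive values (50.5% of all genes did), and 0 passed. Their median was 0.10, and -0.01 in all other cells. In 15 the Csf2-/- libraries lay higher without overlap (19.2% of all genes), and 5 were higher at unadjusted p under 0.05 (3.32% of all genes).

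**Figure D4:**
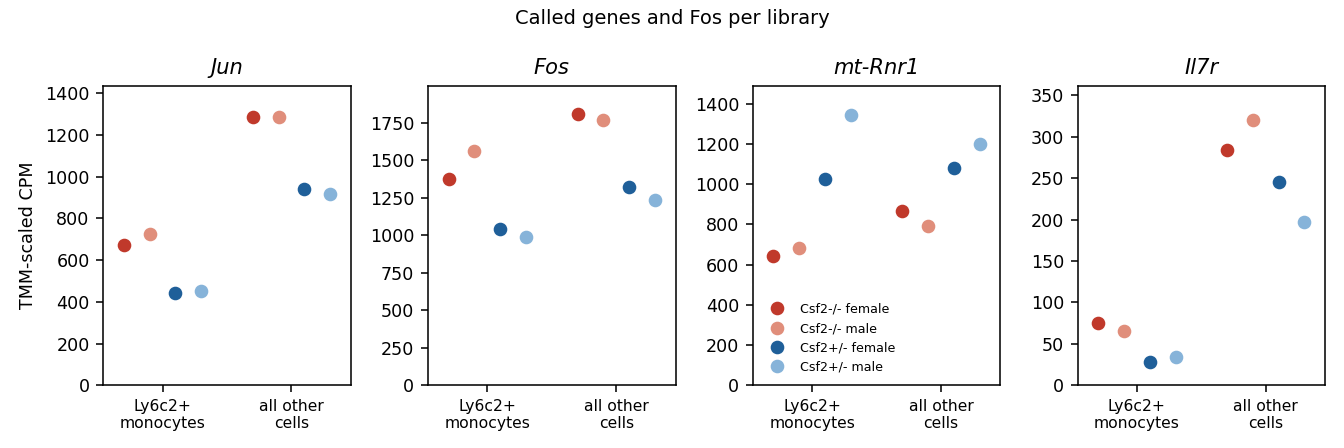
TMM-scaled CPM of Jun, Fos, mt-Rnr1 and Il7r in Ly6c2+ monocytes and in all other cells, 1 point per library, with Csf2-/- left of Csf2+/-. For all 4 genes the genotypes lie on the same sides of each other in the monocytes and in the other cells, and Jun, Fos and Il7r are lower in monocytes than elsewhere.

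The other called genes rested on few cells. Cst10, a cystatin, had 51 and 48 UMIs in Csf2-/- monocytes, all in 1 cell of each library, and none in Csf2+/- monocytes. Its unscaled level was 26.4 and 18.4 CPM in Csf2-/- libraries, against less than the limit that 3 counts set in each Csf2+/- library (1.7 and 1.24 CPM), so it was at least 15.2-fold higher. Kcne1, a potassium channel subunit, had 28 and 43 UMIs in Csf2-/- monocytes, of which 28 and 42 were in 1 cell of each library, and none in Csf2+/- monocytes, at least 10.5-fold higher by the same limit. Kcne1 and Cd79a had a mean under 10 CPM and are named after their values were seen. The cells with the most epithelial UMIs were in the same 2 libraries.

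The B cell genes Igkc (an immunoglobulin light chain) and Cd79a (a B cell receptor subunit) were lower. Igkc had 1.61 and 0.388 CPM in Csf2-/- monocytes, against 27.9 and 24.1 CPM in Csf2+/- monocytes, where 1 cell held 34 of 50 UMIs in the female and 42 of 60 in the male library. Cd79a had 2 and 1 UMIs in Csf2-/- monocytes, against 28 and 27 UMIs in Csf2+/- monocytes, from 2 cells in each library. Without the highest cell of each gene neither passed (edgeR adjusted p = 0.193 for both), with log2 fold changes of -3.98 for Igkc and -6.70 for Cd79a, against -4.75 and -4.15 with all cells. Il7r, the IL-7 receptor of lymphoid cells, had 75.7 and 65.3 CPM in Csf2-/- monocytes, against 27.9 and 33.8 CPM in Csf2+/- monocytes (log2 1.17, SE 0.18, edgeR adjusted p = 0.0323). It was found in 19 and 18 Csf2-/- monocytes, against 7 and 13 Csf2+/- monocytes. Without predicted doublets its log2 fold change was -0.01. It also lost its call without the Csf2-/- female, Csf2+/- female or Csf2+/- male library (edgeR adjusted p = 0.249, 0.358 and 0.0622), and with sex as a block (0.2003). Bcl11b, a T cell factor, had 32.2 and 35.0 CPM in Csf2-/- monocytes, against 7.25 and 14.9 CPM in Csf2+/- monocytes, and did not pass (edgeR adjusted p = 0.137). Among genes with a UMI in at least 10% of the monocytes of 2 or more libraries, 0 of 7732 passed by edgeR and 530 had an unadjusted p under 0.05.

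Of the genes that the naming rule takes next, none passed. Manf, an endoplasmic reticulum stress protein, had 193 and 148 CPM in Csf2-/- monocytes, against 99.3 and 110 CPM in Csf2+/- monocytes, and 1 Csf2-/- female cell held 117 of its UMIs. Id1, an inhibitor of helix-loop-helix factors, had 91.2 and 96.3 CPM in Csf2-/- monocytes, against 47.4 and 63.9 CPM in Csf2+/- monocytes. Fasl, the death ligand of cytotoxic lymphocytes, had 23.1 and 20.6 CPM in Csf2-/- monocytes, against 7.25 and 10.1 CPM in Csf2+/- monocytes. These 3 lay higher without overlap, at edgeR adjusted p-values of 0.291 to 0.378.

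Those that lay lower included Cxcr4, the receptor that holds cells in the bone marrow, with 132 and 128 CPM in Csf2-/- monocytes, against 182 and 181 CPM in Csf2+/- monocytes. Its log2 fold change was -0.48 (SE 0.11, edgeR adjusted p = 0.417), and -0.32 in all other cells. Cmpk2, an interferon-induced mitochondrial kinase, had 22 and 19 CPM in Csf2-/- monocytes, against 39.6 and 37.4 CPM in Csf2+/- monocytes. The lipid carrier Osbpl8, the phospholipase Plcb1 and the anthrax toxin receptor Antxr2 had log2 fold changes of -0.47, -0.42 and -0.49, with edgeR adjusted p-values of 0.443. mt-Co3, an oxidase subunit, had one of -0.46 (edgeR adjusted p = 0.414).

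No gene of the classical state passed between genotypes. Of 25 tested, the genes that chose the cells left out, 11 had positive and 14 negative values, the median was -0.05 and 0 passed. At unadjusted p under 0.05 there were 4, all lower, where 3.05% of all genes were lower by that rule. Fn1 had 620.4 and 626 CPM in Csf2-/- monocytes, against 598 and 677 CPM in Csf2+/- monocytes, a log2 fold change of -0.03 (SE 0.11). S100a4 and S100a6, calcium-binding proteins, overlapped at log2 fold changes of -0.18 and 0.04. Of 17 non-classical genes 0 passed, with a median of -0.16, and Nr4a1 had a log2 fold change of 0.03.

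Antigen presentation and maturation genes did not pass either. Of 14 MHC class II presentation genes 10 had positive values, with a median of 0.11, where the same genes had -0.12 in all other cells. H2-Ab1 had 722 and 646 CPM in Csf2-/- monocytes, against 598 and 433 CPM in Csf2+/- monocytes (log2 0.41, SE 0.15, edgeR adjusted p = 0.746). Cd74 had 1809 and 1627 CPM in Csf2-/- monocytes, against 1874 and 1112 CPM in Csf2+/- monocytes, which overlapped. Of 20 genes of monocyte to macrophage maturation 9 had positive and 11 negative values, with a median of -0.02. Apoe had 2034 and 2055 CPM in Csf2-/- monocytes, against 1715 and 1885 CPM in Csf2+/- monocytes. Its log2 fold change was 0.18, against 0.63 in all other cells.

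With all monocytes in the fit, no inflammatory, interferon or chemokine gene passed. In lineage-limited cells the chemokine Ccl7 (log2 2.31, edgeR adjusted p = 0.0109) and the interferon gene Rsad2 (log2 -1.09, edgeR adjusted p = 0.0282) did, against 2.30 and -0.70 over all monocytes (edgeR adjusted p = 0.784 and 0.743). Il1b, a fever cytokine, had 1008 and 951 CPM in Csf2-/- monocytes, against 1035 and 805 CPM in Csf2+/- monocytes. Of 28 cytokine and alarm genes 12 had positive and 16 negative values, with a median of -0.07, and of 48 interferon response genes 17 had positive and 31 negative values, with a median of -0.04. Of 15 chemokines 11 had positive values and the median was 0.37, close to the 0.36 of the same genes in all other cells. In lineage-limited monocytes the chemokine median was 0.13, and without the highest cell of each gene it was 0.33. Ccl2, the chemokine that draws CCR2-bearing monocytes, had 318 and 462 CPM in Csf2-/- monocytes, against 226 and 232 CPM in Csf2+/- monocytes. It did not overlap (log2 0.77, SE 0.17) but did not pass (edgeR adjusted p = 0.443), and its log2 fold change was 0.53 in all other cells.

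**Figure D5:**
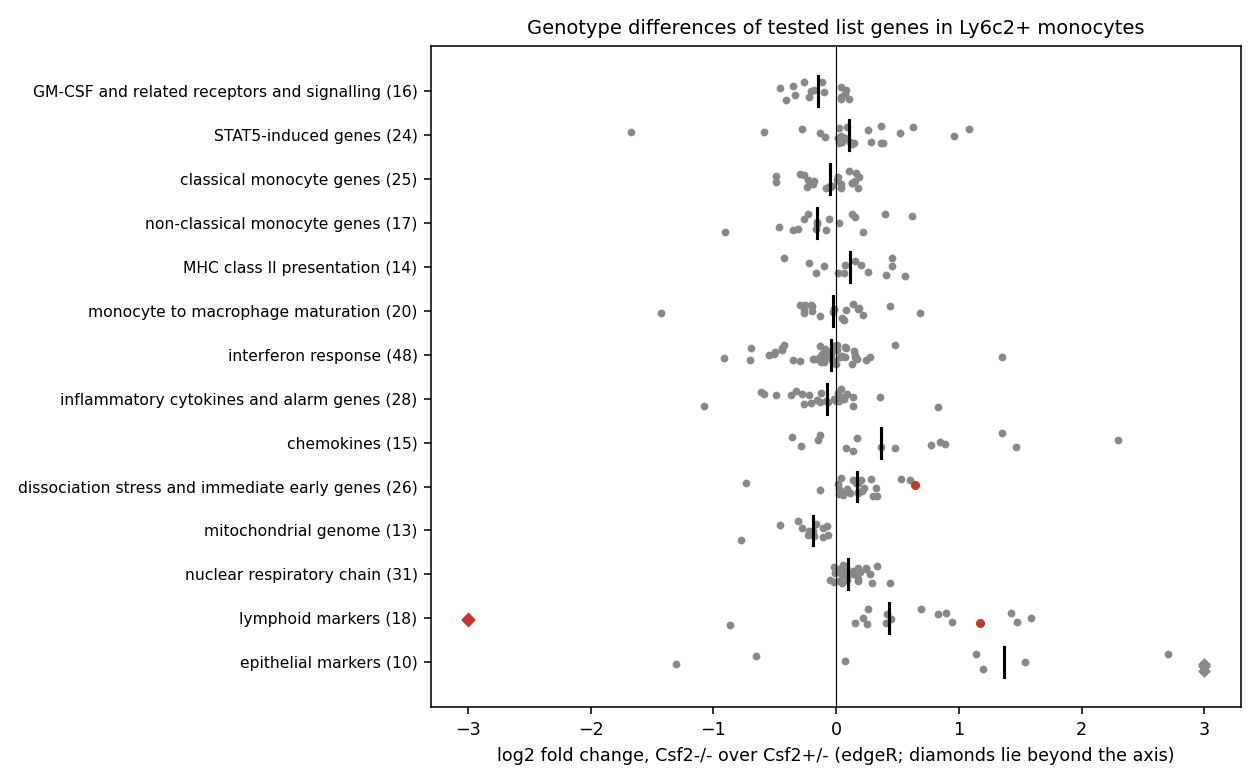
Log2 fold change (Csf2-/- over Csf2+/-, edgeR) of each tested gene of 14 lists in Ly6c2+ monocytes, with the number tested in parentheses. Black bars are list medians, red points passed an adjusted p of 0.05 and diamonds lie beyond the axis. List medians sit between -0.19 and 0.43 except for the epithelial markers at 1.37, and the red points are Jun and 3 lymphoid markers.

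The genotype effect in monocytes was set against that in the 4566 C1q-high macrophages of the same libraries, in 1 edgeR fit with library as a block. Of 12497 genes, 7 differed (0.056%), 4 higher (0.032%) and 3 lower (0.024%) in monocytes. Bpifa2, a salivary secretory gene, and Fn1 had the highest means in monocytes of the 7. In monocytes Fn1 had the values above, while in the macrophages it had 35.4 and 28.5 CPM in Csf2-/- libraries, against 81.8 and 76.0 CPM in Csf2+/- libraries. The macrophage log2 fold change was -1.31 (edgeR adjusted p = 0.0287), and the difference between the cell groups was 1.28 (SE 0.15, edgeR adjusted p = 0.00807). Over all cells other than monocytes, Fn1 was at 32.6 and 33.9 unscaled CPM in Csf2-/- libraries, against 146 and 223 in Csf2+/- libraries. Without predicted doublets the adjusted p of the difference was 0.182, in lineage-limited cells it was 0.895, and without the library block it was 0.0651. The difference itself ran from 1.10 to 1.76 over 10 alternatives. The part of free Fn1 RNA in the macrophage values was not tested.

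Rsad2, the interferon-induced antiviral enzyme viperin, had 32.7 and 55.9 CPM in Csf2-/- monocytes, against 67.0 and 78.8 CPM in Csf2+/- monocytes. In macrophages it had 42.6 and 79.1 CPM in Csf2-/- libraries, against 41.6 and 41.0 CPM in Csf2+/- libraries, and the difference was -1.27 (SE 0.18, edgeR adjusted p = 0.0423). Without the Csf2+/- male library the adjusted p was 0.0719 (difference -1.15), and without the library block it was 1.00 (difference -1.26). The difference ran from -1.67 to -1.15 over 10 alternatives. Of genes named after their values were seen, H2-Eb1 had a log2 fold change of 0.45 in monocytes and -0.47 in macrophages, a difference of 0.97 (SE 0.15, edgeR adjusted p = 0.0838). Csf2rb differed by 0.49 (SE 0.20) and Jun by 0.62 (SE 0.14), with edgeR adjusted p-values of 1 and 0.359.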

How the data were processed

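The deposited files give raw UMI counts for every gene and barcode, with no normalization. Per the submitters' processing notes, Cell Ranger 7.0.0 and the GRCm39 assembly were used. Barcodes were filtered and monocytes chosen as given above, and the members, gene lists and tests were chosen with earlier results of these data known. UMIs were summed per library and tested with edgeR 4.0.16 (TMM, default low-count filter, robust quasi-likelihood fit, genotype only). R was 4.3.3, with DESeq2 1.42.0 and limma 3.58.1 as alternatives. Doublets were scored with Scrublet in scanpy 1.11.5. Where the automatic cutoff marked 0.0343% of cells or fewer (both Csf2+/- libraries), the cells of highest score were taken instead. The fit was tested on simulated data. Named genes were the called ones, those of lowest p up to 8 per direction (at least 10 CPM, no overlap), the 4 highest of each list and GM-CSF pathway genes. Lineage and identity markers and other genes outside that rule were chosen after their values were seen. Of 26033 features, 312 share a symbol and were kept apart. Libraries held 111981802 to 122366588 UMIs. On unscaled CPM, 12.9% of genes were higher and 26.2% lower without overlap, against 19.2% and 18.2% after TMM scaling. One gene is not reported here.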

Additional observations from a re-analysis of the deposited data

Results flagged for a closer look

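The genotype effect differed between monocytes and C1q-high macrophages for 7 genes by the edgeR test of the difference itself. Fn1 had a difference of 1.28 on the log2 scale (log2 fold change -0.03 in monocytes, -1.31 in macrophages). Rsad2 had a difference of -1.27 (-0.70 in monocytes, 0.56 in macrophages). The salivary protein gene Bpifa2 differed by 5.74, with 2540 and 191 CPM in Csf2-/- monocytes, against 2.23 and 4.42 CPM in Csf2+/- monocytes, and the epithelial gene Fxyd3 differed by 3.15, with 85.3 and 48.2 CPM against 4.46 and 14.1 CPM in the same groups. Globin Hba-a2 differed by 11.11, with 20.4 and 1.17 CPM in Csf2-/- monocytes and 0.558 and 0.402 CPM in Csf2+/- monocytes. In macrophages it had 0.386 and 0.114 CPM in Csf2-/- libraries, against 0.578 and 51.2 CPM in Csf2+/- libraries. Without the Csf2+/- male library the Hba-a2 difference was 5.03 (edgeR adjusted p = 0.746), and without the library block it was 11.11 (edgeR adjusted p = 1.00). Cd79a differed by -4.59. Ccr7, a chemokine receptor of migrating lymphocytes and dendritic cells, differed by -3.51 (edgeR adjusted p = 0.0494), with 1.07 and 0.777 CPM in Csf2-/- monocytes and 21.2 and 8.04 CPM in Csf2+/- monocytes. Over 9 alternatives the difference ran from -3.75 to -2.66 for Ccr7 and from -9.55 to -3.82 for Cd79a. Neither gene passed in all of them, and both had a mean under 10 CPM in monocytes.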

How the results depend on the processing

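The monocyte share differed by -0.318 to 0.471 percentage points (Csf2-/- minus Csf2+/-) over the alternatives, always within the spread between libraries. The genotype test called 4 genes higher and 3 lower. It called 12 and 3 with DESeq2, 4 and 0 with limma-voom, 59 and 32 with no filter, 1 and 1 at a mean of at least 20 UMIs, 2 and 0 without predicted doublets, and 2 and 5 in cells with fewer than 3 lymphoid UMIs. It called 10 and 4 at 2000 UMIs and 5% mitochondrial UMIs, 2 and 3 with no Retnla or Cd209a limit, and 0 and 0 by edgeR at Ly6c2 of at least 5 (530 at an unadjusted p under 0.05) or in thinned cells (321). Leaving out 1 library gave 2 to 43 higher and 3 to 8 lower, with 43 without the Csf2-/- male library. A lone library is then assumed to vary like the others. Alternatives added after seeing the data gave 1 and 6 in lineage-limited cells, 2 and 1 without the highest cell of each gene, and 0 and 0 for genes in 10% of monocytes (530). With sex as the replicate block it was 2 and 1. Same-sex deviations correlated at -0.13, and the crossed pairing (added) gave 81 and 44. The comparison with macrophages called 4 higher and 3 lower. It called 53 and 30 with no filter, 6 and 3 without predicted doublets, 2 and 8 in lineage-limited cells, 2 and 2 without the highest cell, and 0 and 0 by edgeR without the library block (525 at an unadjusted p under 0.05). Leaving out 1 library gave 7 to 92 higher and 5 to 45 lower. Il7r turned to -0.0051 without predicted doublets. Bpifa2 turned to -0.31 in lineage-limited cells and -0.51 without the highest cell, where Fxyd3 turned to -0.44. The calls of Cst10, Kcne1, Igkc and Cd79a rest on 1 to 4 cells per library, and 135 to 210 monocytes per library limit what low genes can show. The causes of the other shifts were not tested.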

Other observations

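Genes of protein folding in the endoplasmic reticulum, a list drawn up after their values were seen and therefore given without a test, lay higher in Csf2-/- monocytes. Of 24 measured, 22 had positive values (50.5% of all genes did) and 14 had an unadjusted p under 0.05 in that direction (3.32% of all genes), while 0 passed. The choice of the list sets these counts in part, so an excess over the shares of all genes is no evidence. Hspa5, the chaperone BiP, had 602 and 568 CPM in Csf2-/- monocytes, against 448 and 436 CPM in Csf2+/- monocytes (log2 0.41, SE 0.10). Pdia3, a disulfide isomerase, had 331 and 347 CPM in Csf2-/- monocytes, against 232 and 257 CPM in Csf2+/- monocytes. Calr, calreticulin, had 455 and 501 CPM in Csf2-/- monocytes, against 309 and 391.5 CPM in Csf2+/- monocytes. None of these 3 overlapped. The median log2 fold change of the list was 0.40 in monocytes, 0.27 in lineage-limited monocytes and 0.19 in all other cells.

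Lineage-limited monocytes gave a partly different set of called genes, with 1 higher and 6 lower. Ccl7, a chemokine that binds CCR2, was higher, at 44.3 and 42.0 unscaled CPM in Csf2-/- cells, against 11.7 and 6.26 in Csf2+/- cells (log2 2.31, SE 0.30, edgeR adjusted p = 0.0109). Rsad2 was lower, at 33.7 and 42.0 unscaled CPM in Csf2-/- cells, against 79.8 and 87.6 in Csf2+/- cells (log2 -1.09, SE 0.18, edgeR adjusted p = 0.0282). The proliferation genes Pclaf and Stmn1 had log2 fold changes of -3.73 and -2.52 in these cells, against -0.42 and -0.22 over all monocytes (edgeR adjusted p = 0.897 and 0.947). Over all monocytes Pclaf had 50.5 and 28.0 TMM-scaled CPM in Csf2-/- libraries, against 37.9 and 63.5 in Csf2+/- libraries, which overlapped. In lineage-limited cells Pclaf had 0.964 and 1.83 unscaled CPM in Csf2-/- libraries, against 13.9 and 28.2 in Csf2+/- libraries. After thinning, 87.6% and 92.3% of all Csf2-/- monocytes had no UMI of Pclaf, Mki67, Top2a, Birc5 or Tyms. Of all Csf2+/- monocytes, 95.5% and 89.3% had none. On how many lineage-limited cells the Pclaf and Stmn1 calls rest was not tested. Smgc, a salivary secretory gene, mt-Rnr1 and mt-Co3 were the other 3 called genes. These genes were chosen after their values were seen.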
